A study of Homo sapiens with 10 samples.

Results

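The genes described here encode the exocytosis machinery of the beta cell: 48 named SNARE proteins, SNARE-binding proteins, synaptotagmins, vesicle-docking, priming and active-zone proteins. They were looked up by Ensembl gene identifier in transcript tables of EndoC-βH1, an established human beta cell line that secretes insulin, and 47 of the 48 were matched among 26346 genes. Polyadenylated RNA was sequenced from 5 preparations that received a control siRNA (siCTL) and 5 that received an siRNA against SRp55 (siSR#2), a splicing factor of the SR protein family whose gene is SRSF6. The series describes the preparations as independent. All come from 1 cell line, a single siRNA sequence stands for the knockdown, and no time after transfection is given in the sources used here.

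A secretory granule fuses with the plasma membrane when a SNARE on the granule, a VAMP, zippers with a syntaxin and a SNAP family protein on the plasma membrane. STXBP proteins bind syntaxins before and during assembly, UNC13 and CADPS proteins prime docked granules, complexins clamp the assembled complex and synaptotagmins couple fusion to calcium. NSF with its NAPA and NAPB adaptors then takes the spent complexes apart, and in the beta cell these steps release insulin after glucose has raised calcium.

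The target of the siRNA was at 92.4 to 100.0 RPKM (reads per kilobase of transcript and per M reads, where M is 10 to the power 6) in control libraries and at 21.0 to 31.1 RPKM with SRp55 siRNA. Reads assigned to transcripts came to 61.9 to 159 M per control library and to 94.7 to 190 M per SRp55 siRNA library. At that depth RAPGEF4, at about 10 RPKM, rested on 2514 to 8162 reads per library. All 16 beta cell markers examined were expressed above the filter of a mean of 0.5 RPKM, and 1 of them, SLC30A8, was called higher. Over all tested genes 3.76% were called higher and 1.25% lower. Of 9 acinar and duct markers 3 were tested and 0 called, PRSS1, CELA3A, CTRB1 and PNLIP were listed at 0 in every library, and the list summed to 39.5 to 89.8 RPKM with control and 42.0 to 99.6 RPKM with SRp55 siRNA. Of 9 markers of other islet endocrine cells 6 were tested and 0 called, PPY was listed at 0, and the sum, mostly TTR, was 1205 to 2759 and 1482 to 2972 RPKM. Of 11 mesenchymal, endothelial and immune markers 3 were tested and FN1 was called higher. In that list VIM, CDH5 and CD3E were listed at 0, and the sum was 42.4 to 61.8 and 45.5 to 64.5 RPKM. Of the neuronal and glial markers, which share genes with neuroendocrine cells, 7 of 10 were tested and 1, TUBB3, was called higher. Their summed level was 116 to 162 RPKM with control siRNA and 178 to 257 RPKM with SRp55 siRNA, and the part of these lists in the values below was not tested.

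No tested member was called higher or lower with SRp55 siRNA in the fit without pairing. With the replicate number as a block, which treats equal numbers as pairs, 3 members were called higher, BAIAP3, RAPGEF4 and SYT4, where 9.39% of all tested genes were. Of the 47 matched genes, 44 passed the filter, and 0 of 44 were called in either direction without the block (limma, Benjamini-Hochberg adjusted p under 0.05 over all 13630 tested genes), where 5.02% of all tested genes were called. Unadjusted p-values were under 0.05 in 5 members, SNAP23, SYT4, NSF, RAPGEF4 and BAIAP3, against 21.9% of all tested genes. The log2 fold changes, SRp55 over control siRNA and relative to the median tested gene, had a median of -0.003 and were above the median gene in 22 of 44. They lay within 0.2 of it in 31 members and within 0.3 in 36. Adjusted p-values here and for each gene below test the change as deposited, which for the median gene was a rise of 0.11 on the log2 scale. Each log2 fold change printed from this fit therefore lies below the one tested by that rise. For NSF -0.49 is printed and -0.38 was tested, for SNAP25 -0.18 and -0.07, and for RAPGEF4 0.38 and 0.49. The filter passed a gene by its mean over both groups, so the 44 are the members measured well enough to test and not the whole list. In bulk RNA a lower level in every cell and a loss of part of the cells cannot be told apart.

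**Figure D1:**
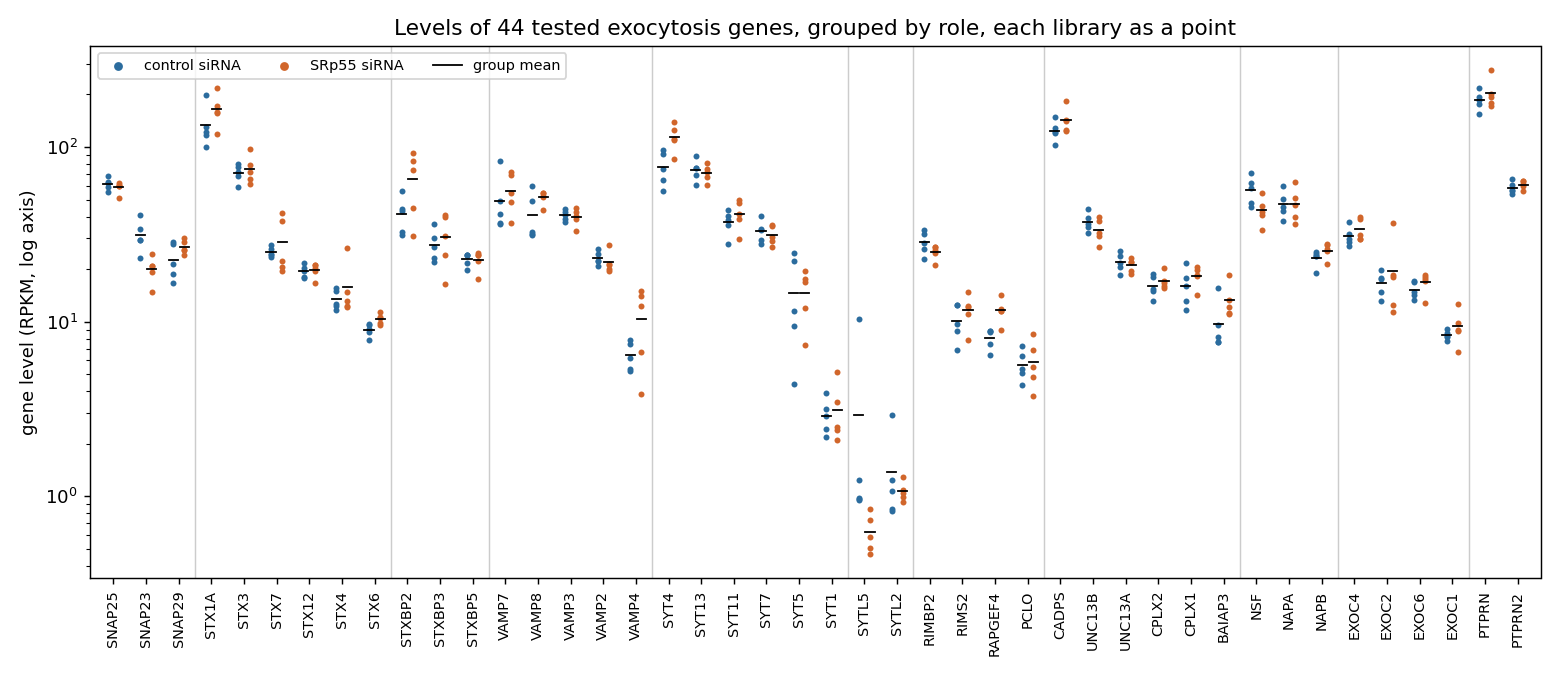
Gene level in RPKM on a log axis for the 44 tested genes, grouped by role (grey lines separate roles), with each library as a point and each group mean as a black bar. The highest control mean is that of PTPRN, at 185 RPKM, and in every tested gene except SYTL5 and RAPGEF4 the control and SRp55 siRNA points overlap.

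The machinery was expressed at widely different levels, compared here per length in RPKM. The median over the tested members was 24.2 RPKM with control siRNA and 25.3 RPKM with SRp55 siRNA. The most abundant was PTPRN, the granule membrane protein IA-2, at 185 ± 23.0 and 205 ± 41.4 RPKM (SD, n = 5). It was followed by STX1A, the plasma membrane syntaxin, at 134 ± 37.4 and 165 ± 35.3 RPKM, and by CADPS, a granule priming factor, at 124 ± 16.5 and 143 ± 24.2 RPKM. These 3 neighbours in the order overlapped in their libraries. SYT4, SYT13 and STX3 followed at control means of 76.9, 74.0 and 71.3 RPKM, whose differences were smaller than their SDs. At the lower end were SYTL2, at 1.38 ± 0.873 RPKM, and SYT1, the main neuronal calcium sensor, at 2.90 ± 0.667 RPKM in control libraries. SYTL5 was at 2.91 ± 4.18 RPKM in control libraries, a mean set by control library 5 at 10.4 RPKM. With SRp55 siRNA SYTL5 was the lowest tested member, at 0.628 ± 0.157 RPKM. SYTL4, the Rab27 effector granuphilin, held 0 to 2 reads per library and RIMS1 0 to 6 reads. CADPS2 was at 0.321 ± 0.0335 RPKM with control siRNA and at 0.455 ± 0.151 RPKM with SRp55 siRNA. These 3 were below the filter. DOC2B, a calcium-binding protein with paired C2 domains, was not matched by its identifier. The transcript that GENCODE 44 gives to DOC2B, ENST00000343572, was listed under another identifier at 0.0322 to 0.252 RPKM.

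Among the SNAP family SNAREs, SNAP25, the plasma membrane SNARE of regulated secretion, was the most abundant, and SNAP23, its broadly expressed relative, had the lowest log2 fold change of this family. SNAP25 (ENSG00000132639.8, chr20:10199478-10288066 in GRCh37) was at 68.6, 62.3, 63.4, 58.9 and 55.1 RPKM in control libraries 1 to 5. In SRp55 siRNA libraries 1 to 5 it was at 61.9, 59.6, 59.9, 60.6 and 51.4 RPKM. The groups overlapped, with a log2 fold change of -0.18 (SE 0.10, limma adjusted p = 0.73). SNAP29, which acts on intracellular membranes, was at 22.6 ± 5.30 and 26.8 ± 2.38 RPKM.

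SNAP23 (ENSG00000092531.5, chr15:42783431-42837547 in GRCh37) was at 40.8, 23.2, 29.4, 34.2 and 29.5 RPKM in control libraries and at 20.9, 24.5, 14.8, 20.8 and 19.3 RPKM in SRp55 siRNA libraries, in replicate order. Only control library 2 lay within the range of the SRp55 siRNA libraries. The mean was 31.4 ± 6.55 RPKM in control and 20.1 ± 3.48 RPKM with SRp55 siRNA (SD, n = 5), a log2 fold change of -0.73 (SE 0.17, limma adjusted p = 0.057). The exact two-sided permutation test of the 10 values gave p = 0.016. When the estimated reads of the gene were summed instead and scaled per M reads (RPM), the groups separated. SNAP23 held 37.1 to 46.3 RPM in control and 23.2 to 31.8 RPM in SRp55 siRNA libraries, a log2 fold change of -0.56 (SE 0.10, limma adjusted p = 0.0029 over 14249 genes). By the summed reads SNAP23 therefore fell, as it did on RPKM under median-of-ratios scaling (adjusted p = 0.016). With transcripts annotated as protein coding alone, the log2 fold change was -0.42 (adjusted p = 0.33). Transcripts annotated for nonsense-mediated decay held 24.0% ± 13.9 of the SNAP23 RPKM in control and 8.92% ± 10.7 in SRp55 siRNA libraries. LRRC57, at a mean of 14 RPKM, overlaps SNAP23 on the other strand, and without strand the reads of the overlap cannot be told apart.

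**Figure D2:**
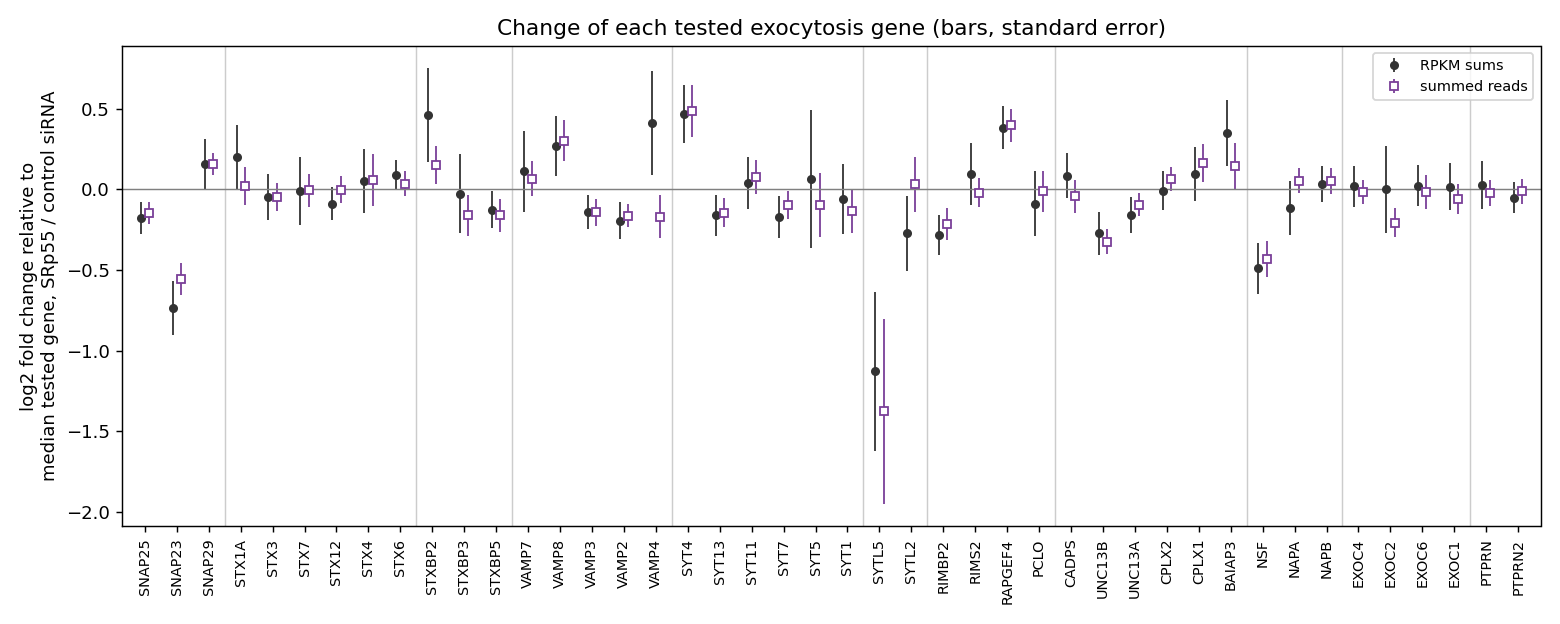
Log2 fold change of each tested gene, SRp55 over control siRNA relative to the median tested gene, from RPKM sums (filled circles) and from summed reads (open squares), with bars for the standard error, in the order of roles used in the plot of levels. Most genes lie near 0 on both scales, SNAP23, NSF and UNC13B lie below 0 on both, RAPGEF4 and SYT4 lie above 0 on both, and VAMP4 differs in sign between them.

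The 6 syntaxins, the target-membrane SNAREs, all had log2 fold changes between -0.09 for STX12 and 0.20 for STX1A. Their control means ran from 8.97 RPKM for STX6, a syntaxin of the trans-Golgi and endosomes, to 134 RPKM for STX1A. STX4, a plasma membrane syntaxin that pairs with SNAP23, was at 13.5 ± 1.74 and 15.8 ± 6.09 RPKM, and 1 library, SRp55 siRNA 1 at 26.5 RPKM, set the wider spread. The lowest adjusted p of the family was 0.25, for STX6. On summed reads the 6 lay between -0.05 and 0.06.

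STXBP2 (ENSG00000076944.10, chr19:7701767-7712759 in GRCh37), a Sec1/Munc18 protein that binds syntaxins, had the second-highest log2 fold change of all tested members, at 0.46 (SE 0.29, limma adjusted p = 0.29). It ranged with single libraries, from 0.30 without SRp55 siRNA library 5 to 0.70 without SRp55 siRNA library 3, where it was above that of SYT4 at 0.39. It was at 44.1, 31.3, 56.1, 42.8 and 32.8 RPKM in control libraries 1 to 5 and at 93.1, 73.8, 31.2, 44.9 and 83.4 RPKM in SRp55 siRNA libraries 1 to 5. The high libraries, SRp55 siRNA 1, 2 and 5 and control 3, were the same 4 in which a short transcript annotated as a retained intron, ENST00000601061, held most of the gene's RPKM. That transcript, 706 bases long, held 87.6% in control library 3 and 70.5, 65.8 and 85.5% in SRp55 siRNA libraries 1, 2 and 5. In the other 6 libraries it held at most 1.04%, on 18.3 to 52.7 reads. On summed reads the log2 fold change of STXBP2 was 0.15, and with coding transcripts alone it was -0.25. STXBP3, at 27.6 ± 5.80 and 30.4 ± 10.4 RPKM, and STXBP5, the syntaxin-binding protein tomosyn, at 22.7 ± 1.91 and 22.6 ± 2.94 RPKM, had log2 fold changes of -0.03 and -0.12.

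Among the vesicle SNAREs, VAMP2, the main granule SNARE of insulin secretion, was at 23.2 ± 2.07 RPKM in the control and 21.9 ± 3.12 RPKM in the SRp55 siRNA libraries. VAMP3, its relative on recycling endosomes, was at 40.7 ± 2.67 and 39.8 ± 4.27 RPKM. VAMP8, which serves granule and endosome fusion, was at 40.9 ± 12.8 and 51.5 ± 4.51 RPKM, and VAMP7, which serves lysosomal and late endosomal fusion, was at 49.2 ± 19.5 and 56.2 ± 14.6 RPKM. None of these passed the test, and the lowest adjusted p of the 5 VAMPs was 0.27. VAMP4, a trans-Golgi SNARE singled out here after its values were seen, was at 6.41 ± 1.19 and 10.4 ± 4.86 RPKM, a log2 fold change of 0.41 (adjusted p = 0.38). Its reads moved the other way, at -0.17 on the log2 scale. A 586-base VAMP4 transcript without an annotated coding sequence, ENST00000482519, held 40.5% ± 15.9 of the RPKM in control and 63.7% ± 22.4 in SRp55 siRNA libraries.

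SYT4 (ENSG00000132872.7, chr18:40847843-40857615 in GRCh37), a synaptotagmin of secretory vesicles, had the highest log2 fold change of the tested members. It was at 96.5, 75.4, 91.7, 65.0 and 56.2 RPKM in control libraries 1 to 5 and at 111, 126, 139, 109 and 85.9 RPKM in SRp55 siRNA libraries 1 to 5. Each SRp55 siRNA library exceeded the control library of the same number, and the groups overlapped in the lowest SRp55 siRNA library. The means were 76.9 ± 17.1 and 114 ± 19.97 RPKM (SD, n = 5). The log2 fold change of 0.47 had an SE of 0.18 and a limma adjusted p of 0.090, and permuting the 10 values exactly gave p = 0.024. SYT4 was called higher when the replicate number entered the limma fit as a block (adjusted p = 0.021) and without SRp55 siRNA library 5 (adjusted p = 0.0499), and was not called on summed reads (0.49, adjusted p = 0.057). The other tested synaptotagmins had log2 fold changes from -0.17 to 0.06. Of these, SYT7, a high-affinity calcium sensor of insulin granules, was at 32.9 ± 4.88 and 31.4 ± 3.94 RPKM. SYT13 was at 74.0 ± 10.2 and 71.1 ± 7.66 RPKM, and SYT11, which does not bind calcium, at 37.2 ± 5.97 and 41.5 ± 7.99 RPKM. SYT5 was at 14.5 ± 8.74 and 14.7 ± 4.96 RPKM, and its SD within groups on the log2 scale, 0.787, was the widest of the 6 tested synaptotagmins.

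The synaptotagmin-like proteins link Rab27 on the granule to the plasma membrane. SYTL5 (ENSG00000147041.7, chrX:37865835-37988072 in GRCh37) was at 0.972, 0.959, 0.981, 1.24 and 10.4 RPKM in control libraries 1 to 5 and at 0.506, 0.588, 0.735, 0.843 and 0.470 RPKM in SRp55 siRNA libraries 1 to 5. The groups did not overlap in SYTL5, which was 1 of 2 tested members of that kind on RPKM, the other being RAPGEF4, where 7.92% of all tested genes did not overlap. Its log2 fold change was the lowest of the members, at -1.13 (SE 0.49, limma adjusted p = 0.26). Control library 5 decided that size, and without it the log2 fold change was -0.53 (adjusted p = 0.10). In that library 8291 reads were assigned to the transcript ENST00000456733, against 0 to 317 in the others. A second gene, ENSG00000250349, overlaps SYTL5 on the same strand at 0 to 5.39 RPKM, so the division of reads between them is uncertain.

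Among the active-zone scaffolds, which hold priming factors and calcium channels near release sites, PCLO, the giant protein piccolo (ENSG00000186472.14, chr7:82387442-82792246 in GRCh37), was at 7.26, 4.36, 5.10, 6.34 and 5.38 RPKM in control libraries 1 to 5. It was at 3.76, 8.49, 5.52, 6.93 and 4.81 RPKM in SRp55 siRNA libraries 1 to 5. The SRp55 siRNA libraries held both the lowest and the highest value, with a log2 fold change of -0.09 (SE 0.20, limma adjusted p = 0.97). RIMS2, the beta cell RIM protein that binds Rab3 and UNC13 (ENSG00000176406.16, chr8:104512976-105268322 in GRCh37), was at 12.4, 9.65, 8.89, 12.4 and 6.93 RPKM in control and at 12.1, 14.9, 12.3, 11 and 7.88 RPKM in SRp55 siRNA libraries, in replicate order. The groups overlapped over most of their range, and the log2 fold change was 0.09 (SE 0.19, adjusted p = 0.58). RIMBP2, which ties RIM to calcium channels, was at 28.5 ± 4.25 and 25.1 ± 2.37 RPKM, with a log2 fold change of -0.28 (adjusted p = 0.45).

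RAPGEF4 (ENSG00000091428.13, chr2:173600002-173917621 in GRCh37) encodes EPAC2, the cyclic AMP sensor that binds RIMS2 and potentiates insulin release. It is described in full after its values were seen. It was at 8.81, 8.88, 8.74, 7.48 and 6.48 RPKM in control libraries 1 to 5 and at 11.8, 14.2, 11.5, 11.6 and 8.99 RPKM in SRp55 siRNA libraries 1 to 5. Every SRp55 siRNA library lay above every control library. The means were 8.08 ± 1.06 and 11.6 ± 1.84 RPKM (SD, n = 5), a log2 fold change of 0.38 (SE 0.13, limma adjusted p = 0.061). Exact permutation of the 10 values gave p = 0.00794, the smallest that 5 against 5 can give. The call depended on the processing. RAPGEF4 was called higher on summed reads (0.40, adjusted p = 0.019), with the replicate block (adjusted p = 0.015), with coding transcripts alone (adjusted p = 0.031) and without SRp55 siRNA library 5 (adjusted p = 0.030). It was not called with median-of-ratios scaling (0.38, limma adjusted p = 0.099). Nor was it called with any other single library left out (limma adjusted p up to 0.135). On reads the groups overlapped slightly, at 28.3 to 38.6 RPM in control and 38.3 to 50.3 RPM in SRp55 siRNA libraries.

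The priming factors and complexins gave log2 fold changes from -0.27 for UNC13B to 0.35 for BAIAP3. UNC13B and BAIAP3, and NSF in the next group, were chosen for their values. UNC13B (ENSG00000198722.8, chr9:35161999-35405335 in GRCh37), the main Munc13 of granule priming in these cells by level, was at 37.4 ± 4.66 RPKM in the control and 33.5 ± 5.2 RPKM in the SRp55 siRNA libraries. On RPKM the groups overlapped and the adjusted p was 0.51. On summed reads they did not: UNC13B held 213 to 260 RPM in control and 170 to 209 RPM in SRp55 siRNA libraries, and fell by 0.32 on the log2 scale (SE 0.08, limma adjusted p = 0.013). On reads, the groups did not overlap in 3 members, SNAP23, SYTL5 and UNC13B, against 13.9% of all genes tested on reads. UNC13A was at 21.97 ± 2.77 and 21.1 ± 1.86 RPKM. BAIAP3, a Munc13 relative of dense-core vesicle maturation, was at 9.72 ± 3.34 and 13.3 ± 3.04 RPKM (adjusted p = 0.22) and was called higher with the replicate block alone (adjusted p = 0.029). Its log2 fold change on reads was 0.14 (adjusted p = 0.53), and TSR3, at a mean of 27.4 RPKM, overlaps it on the other strand. The complexins CPLX1 and CPLX2, at 16.04 ± 3.92 and 16.05 ± 2.35 RPKM in control libraries, had log2 fold changes of 0.09 and -0.01.

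NSF (ENSG00000073969.14, chr17:44668035-44834830 in GRCh37), the ATPase that disassembles SNARE complexes, was at 58.5, 70.9, 62.0, 48.1 and 45.5 RPKM in control libraries 1 to 5 and at 41.0, 42.6, 54.6, 46.2 and 33.7 RPKM in SRp55 siRNA libraries 1 to 5. Each SRp55 siRNA library lay below the control library of its number, although the groups overlapped. The means were 57.0 ± 10.4 and 43.6 ± 7.66 RPKM, with a log2 fold change of -0.49 (SE 0.16, limma adjusted p = 0.19). With the replicate block, which treats equal numbers as pairs, NSF was not called (limma adjusted p = 0.074). On summed reads NSF fell by 0.43 on the log2 scale (adjusted p = 0.019), from 202 ± 27.5 to 150 ± 19 RPM (exact permutation p = 0.016). NSF has an annotated pseudogene copy, NSFP1, so its level is uncertain. Its adaptors were at 47.3 ± 8.39 and 47.4 ± 10.6 RPKM for NAPA and at 23.1 ± 2.42 and 25.6 ± 2.55 RPKM for NAPB, and neither passed the test.

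**Figure D3:**
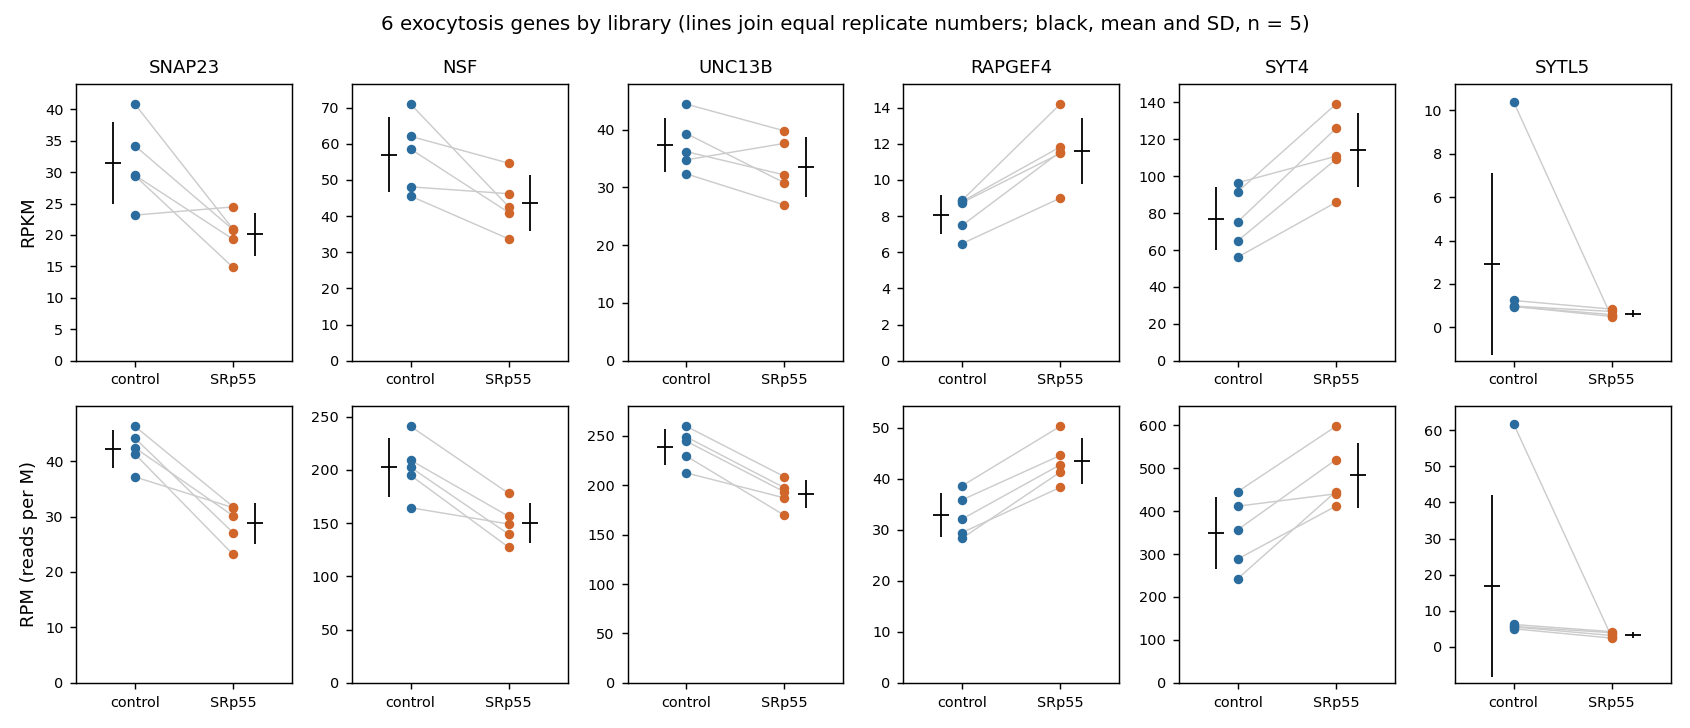
Levels of 6 genes by library in RPKM (top) and in RPM, reads per M (bottom), with grey lines joining libraries of equal replicate number and black marks for the mean and SD of each group (n = 5). SNAP23 and UNC13B separate between groups on reads and overlap on RPKM, RAPGEF4 separates on RPKM, and the mean of SYTL5 in control libraries is set by the library at 10.4 RPKM.

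The 4 exocyst subunits, which tether vesicles to the plasma membrane, lay close to the median gene. Their log2 fold changes ran from 0.002 for EXOC2 to 0.02 for EXOC6 on RPKM, and from -0.21 to -0.02 on summed reads, with a lowest adjusted p of 0.58 on RPKM. EXOC4 was the most abundant at 30.9 ± 3.92 and 33.9 ± 4.93 RPKM. The granule membrane proteins PTPRN and PTPRN2 (phogrin), relatives of receptor tyrosine phosphatases, had log2 fold changes of 0.03 and -0.05.

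Summed reads gave another count of calls than RPKM. On reads, 1 of 45 tested members was called higher, RAPGEF4, where 8.17% of all 14249 genes were. On reads 3 members were called lower, NSF, SNAP23 and UNC13B, where 9.03% of all were, and 17.2% of all genes were called in either direction. Median-of-ratios scaling of the RPKM called 0 members higher and 1 lower, SNAP23, where 3.03% of all genes were called higher and 3.72% lower, 6.75% in all. With the replicate block, 3 members were called higher, BAIAP3, RAPGEF4 and SYT4, and 0 lower, where 9.39% of all genes were called higher and 3.7% lower, 13.1% in all. With coding transcripts alone, 1 was called higher, RAPGEF4, and 0 lower, where 3.26% of all genes were called higher and 1.61% lower, 4.87% in all. RAPGEF4 was called under 3 of these settings and SNAP23 under 2. The SD within groups on the log2 scale had a median of 0.254 on RPKM and 0.166 on reads, and it was smaller on reads in 38 of the 44 members. Over all tested genes these medians were 0.262 and 0.173. A sum of RPKM gives a read in a short transcript more weight than a read in a long one, so it moves when reads are reassigned within a gene, and a sum of reads does not. The scales also differed in the log2 rise of the median gene, 0.11 on RPKM, 0.007 with median-of-ratios scaling and 0.003 on reads. The adjusted p-values test changes with that rise left in, and its part in the calls was not tested. The sign of the log2 fold change differed between the scales in 12 of the 44, among them VAMP4, SYTL2, RIMS2 and CADPS. Several of the 12 lay near 0 on both scales, such as PTPRN at 0.03 on RPKM and -0.02 on reads. The share with such a difference over all tested genes was not computed.

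Transcript usage, the percent of a gene's RPKM held by a transcript, was compared to ask whether isoforms of the machinery depend on SRp55. In 41 members at least 2 transcripts could be tested, and 0 were called (limma diffSplice F test, adjusted p under 0.05 and a shift of at least 10 percentage points), against 0.343% of the 9915 genes tested. None of the 41 had an unadjusted p under 0.05, against 8.17% of all genes, and 0 were called on transcript reads, against 0.547%. Shifts of at least 10 points in some transcript, whatever the p, occurred in 11 members, against 36.4% of all genes.

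SNAP25 has 2 main isoforms that use alternative exons 5, termed 5a and 5b, which lie side by side and are included in turn. The exons are shown because they tell the pair of isoforms apart. The sequences are from GENCODE 44 (GRCh38, plus strand), 118 bases each, with capitals at the 31 positions where they differ. Exon 5a of SNAP25-202 (ENST00000304886) lies at chr20:10292882-10292999 and exon 5b of SNAP25-201 (ENST00000254976) at chr20:10293161-10293278.
SNAP25 exon 5a: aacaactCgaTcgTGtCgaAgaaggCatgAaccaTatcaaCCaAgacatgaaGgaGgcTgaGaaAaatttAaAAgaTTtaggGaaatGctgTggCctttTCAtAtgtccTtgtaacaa
SNAP25 exon 5b: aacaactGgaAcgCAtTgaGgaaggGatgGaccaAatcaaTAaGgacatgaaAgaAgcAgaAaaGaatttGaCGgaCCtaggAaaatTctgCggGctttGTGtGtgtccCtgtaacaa

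The 5a isoform held 54.2, 53.9, 62.2, 57.8 and 64.1% of SNAP25 RPKM in control libraries 1 to 5 and 59.2, 57.0, 64.9, 60.1 and 69.8% in SRp55 siRNA libraries 1 to 5. It was the larger share in every library, and each SRp55 siRNA library exceeded the control library of its number, with overlap between the groups. The means were 58.5% ± 4.63 and 62.2% ± 5.13 (SD, n = 5), a difference of 3.71 points (exact permutation p = 0.26, limma diffSplice adjusted p = 0.93 for the gene). Neither of these tests treats equal replicate numbers as pairs, so spread between pairs enters both. With the replicate block the diffSplice adjusted p for SNAP25 was 0.73. The 5b isoform held 36.2% ± 4.34 in control and 31.9% ± 4.30 in SRp55 siRNA libraries. The protein-coding transcripts together held 96.9% ± 0.786 and 97.2% ± 0.718 of SNAP25.

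For PCLO, the transcript with the highest mean usage was the 16216-base ENST00000333891. It held 20.9, 33.8, 43.8, 22.9 and 15.2% in control libraries 1 to 5 and 53.7, 22.2, 36.0, 15.2 and 20.7% in SRp55 siRNA libraries 1 to 5. Both groups covered nearly the same range, and the means differed by 2.22 points (exact permutation p = 0.83). In RIMS2 the highest share of RPKM was held by a 550-base transcript without an annotated coding sequence, ENST00000395361. It held 31.5, 20.8, 27.4, 36.2 and 19.7% in control and 25.0, 31.3, 27.7, 30.3 and 24.9% in SRp55 siRNA libraries, in replicate order. The SRp55 siRNA libraries lay within the range of the control libraries, and the difference was 0.74 points (exact permutation p = 0.86). By reads the largest RIMS2 transcript was the 8002-base coding transcript ENST00000507740, at 54.8 and 55.7% of the reads in the 2 groups.

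**Figure D4:**
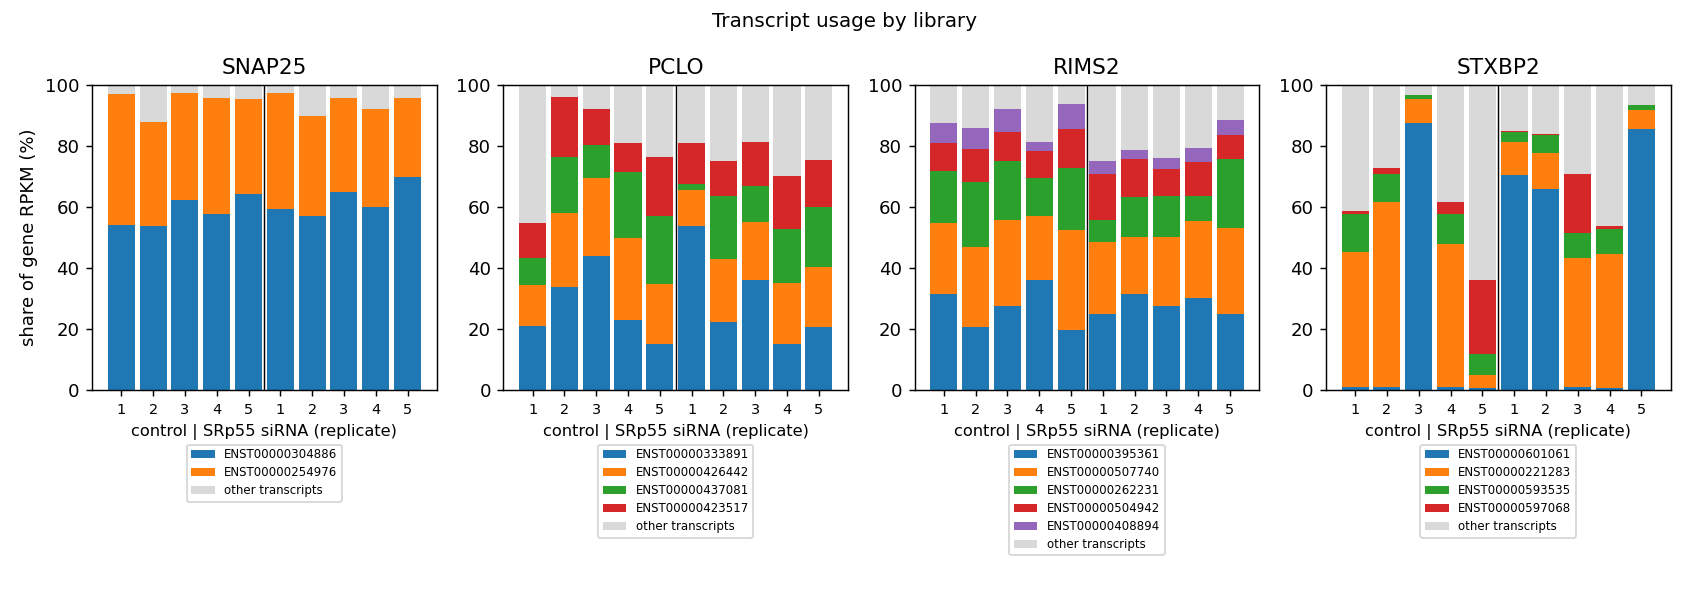
Share of gene RPKM held by each tested transcript of SNAP25, PCLO, RIMS2 and STXBP2, as stacked bars by library, control siRNA libraries to the left and SRp55 siRNA libraries to the right of the black line, with all other transcripts in grey. SNAP25 keeps 2 isoforms at similar shares in all 10 libraries, while the STXBP2 retained-intron transcript holds most of the RPKM in 4 libraries and at most 1.04% in the other 6.

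The usage of some transcripts varied widely between libraries of the same group. The usage of 22 of the 139 tested member transcripts (15.8%) ranged over at least 40 points within a group, against 21.7% of all tested transcripts. In EXOC6, an exocyst subunit, the transcripts ENST00000371552 and ENST00000260762, of nearly equal length, replaced each other between libraries of a group. The first held 65.7 to 68.7% in control libraries 3, 4 and 5, where the second was at 0, and 2.62% and 0 in control libraries 1 and 2, where the second held 72.6 and 32.6%. NAPA, the NSF adaptor, had a main transcript at 18.7 to 82.8% in control and 38.4 to 92.9% in SRp55 siRNA libraries. In STX1A the coding transcript ENST00000395154 ranged from 13.3 to 54.1% in control and from 24.0 to 66.2% in SRp55 siRNA libraries. Retained-intron transcripts held 34.0% ± 8.51 of BAIAP3 in control and 43.99% ± 5.46 in SRp55 siRNA libraries, and those annotated for nonsense-mediated decay held 34.9% ± 3.30 and 30.7% ± 5.55 of RIMBP2. Differences between the groups in these shares were not tested. In NAPA the retained-intron share went the other way, at 12.8% ± 13.8 in control and 4.26% ± 1.18 in SRp55 siRNA libraries.

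A 6-base word, AGGCTT, was sought in the 3′ UTRs of the members because it had gone with lower expression over all genes of these same libraries. Its count here, and the fold changes and calls set beside it, are therefore a description and no test of the word. It was sought on the transcript strand of the canonical GENCODE 44 transcripts, with its overlapping extensions CAGGCTT and AGGCTTA. It occurred in 15 of 44 tested members (34.1%) and in 36.9% of all tested genes with a 3′ UTR. The extension CAGGCTT occurred in 3 members, NAPB, SYT7 and VAMP2 (6.8%, against 15.4% of all genes), and AGGCTTA in 5, NSF, STX6, STXBP5, SYTL5 and UNC13A (11.4%, against 9.1%). The median log2 fold change was -0.06 in the 15 members with the word and 0.02 in the other 29, and over all genes -0.05 with it and 0.04 without. Genes with the word also had longer 3′ UTRs, at medians of 3378 against 1228 bases in members and 2728 against 797 over all genes. The part of UTR length in these differences was not tested. Of the 3 members called lower on reads, NSF and UNC13B hold the word and SNAP23 does not, nor do RAPGEF4 and SYT4. The word also lay in members above the median gene, SNAP29 (log2 fold change 0.16), VAMP7 (0.11), STX6 (0.09), SYT11 (0.04) and NAPB (0.03). The other members with the word lay below the median gene. The windows around the first copy in NSF and UNC13B, and in SYTL5, the member with the lowest log2 fold change, are shown with the word in capitals (GRCh38, plus strand). They lie at chr17:46756670-46756699, chr9:35404575-35404604 and chrX:38126980-38127009.
NSF: agtataatattaAGGCTTactagtatcact
UNC13B: ccagtgagaacaAGGCTTtgaaactgaaca
SYTL5: caaattgtgcaaAGGCTTatagggtttatg

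A further list held 72 exocytosis and SNARE genes outside the 48, of which 70 were matched and 50 tested. Of these 1 was called higher, where 3.76% of all tested genes were called higher, and 0 lower, where 1.25% of all were. Unadjusted p-values were under 0.05 in 10, against 21.9% of all tested genes, and the median log2 fold change was 0.04. The gene called was RIMS4, a short RIM protein that holds only the C-terminal C2 domain, which rose from 0.260 ± 0.0787 to 0.831 ± 0.0741 RPKM (SD, n = 5). It was at 0.282, 0.213, 0.222, 0.388 and 0.194 RPKM in control and at 0.923, 0.835, 0.717, 0.851 and 0.828 RPKM in SRp55 siRNA libraries, in replicate order, with every SRp55 siRNA library above every control library. RIMS4 passed the filter, at a mean of 0.545 RPKM over all libraries, only through the group where it is high, and it was also called higher with no filter. On the log2(RPKM + 0.5) scale, which understates changes of genes this low, the difference was 0.70 (SE 0.10, limma adjusted p = 0.0027). On summed reads RIMS4 rose by 1.49 on the log2 scale (adjusted p = 3.8e-05), and of 57 genes of the list tested on reads 7 were called higher, where 8.17% of all genes were, and 1, the Golgi SNARE BET1, lower, where 9.03% were.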

How the data were processed

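Gene and transcript expression was measured by RNA sequencing in 10 libraries, which all entered every fit unless stated. TopHat and GRCh37 (hg19) are named as aligner and build, per the submitters' processing notes. How reads were divided among transcripts, and whether strand was used, is not given in the sources used here. The authors' deposited files list 155130 transcripts, each with an estimated read count, which can be fractional, and an RPKM value in 1 text field. No p-values of the authors were used.

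Members, gene lists and tests were chosen with earlier results of these data known. Gene values were sums of transcript values. Genes averaging 0.5 RPKM or more were tested with limma 3.58.1 (R 4.3.3, trend and robust options) on log2(RPKM + 0.5). Since this pseudocount shrinks low genes, their fold changes are understated. RPM used median-of-ratios size factors. Usage was tested by diffSplice on transcripts with at least 0.5 RPKM and 5% of the gene. Scripts were tested on simulated data. Exact permutations of the 10 values cannot give p under 0.00794.

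Values per library were given for SNAP25, PCLO, RIMS2, members called in the fit without the block (there were none), and the 2 highest and 2 lowest log2 fold changes. NSF and RAPGEF4 were added after their values were seen. Deviations from group means correlated at 0.13 to 0.41 between libraries of equal number and at most 0.12 otherwise, so numbers were treated as pairs in a blocked alternative. The other alternatives were pseudocounts of 0.1 and 1, no filter, median-of-ratios scaling, summed reads, each library left out and, chosen after seeing the data, coding transcripts alone. Assigned reads made up 82.1% ± 6.82 of the RPKM total in control and 87.0% ± 7.24 in SRp55 siRNA libraries (SD, n = 5).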

Additional observations from a re-analysis of the deposited data

Results flagged for a closer look

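In 12 of 88 groups of 5 libraries (44 tested members, 2 groups each), the highest or lowest RPKM stood apart from the other 4 by more than Dixon's 95% criterion. That criterion flags about 1 in 20 groups only where values are normally distributed and groups independent. Several flags here fell in the same library. The share flagged over all tested genes was not computed, so whether 12 of 88 is unusual was not tested. In SRp55 siRNA library 1 these were STX4 at 26.5 RPKM (others 12.1 to 14.8), VAMP2 at 27.3 RPKM (19.5 to 21.4) and PTPRN at 276 RPKM (173 to 201). In SRp55 siRNA library 5 they were SNAP25 at 51.4 RPKM (59.6 to 61.9), VAMP8 at 43.7 RPKM (51.7 to 54.7) and EXOC6 at 12.8 RPKM (17.2 to 18.4), all 3 below the others. EXOC2 stood out in SRp55 siRNA library 4 at 36.6 RPKM (11.4 to 18.5). In control library 1 VAMP7 was at 82.8 RPKM (36.2 to 49.3), SYTL2 at 2.91 RPKM (0.824 to 1.25) and BAIAP3 at 15.5 RPKM (7.65 to 9.57). In control library 5 SYTL5 was at 10.4 RPKM (0.959 to 1.24) and NAPB at 18.9 RPKM (23.7 to 24.9).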

How the results depend on the processing

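SRSF6 stayed lower and called under every alternative run, and 0 members were called in usage under every alternative run. Counts of member calls moved from 0 higher and 0 lower to 1 and 3 on summed reads, 0 and 1 with median-of-ratios scaling, 1 and 0 with coding transcripts alone, and 0 to 2 higher with a library left out (2 without SRp55 siRNA library 5, 0 lower throughout). With the replicate block, which treats equal numbers as pairs, 3 members (BAIAP3, RAPGEF4 and SYT4) were called higher and 0 lower, and 6 other exocytosis genes higher and 1 lower, where 13.1% of all genes were called. With the block SRSF6 was still called lower, RIMS4 was still called higher and 0 members were called in usage. Calls in the cell type marker lists under the block are not given here. The other exocytosis genes, 1 higher and 0 lower, moved to 3 higher with no filter (642 of all 20685 genes called), 7 higher and 1 lower on summed reads (8.17 and 9.03% of all genes), 1 lower with median-of-ratios scaling (3.72%) and 2 higher with coding transcripts alone (3.26%). With a library left out they ranged from 1 to 4 higher (4 without control library 4, with 1083 of all 13610 genes called, and 2 without SRp55 siRNA library 5, with 805 of all 13635). The log2 fold change of RIMS2 turned to -0.021 on summed reads and -0.081 with coding transcripts alone, and ranged from -0.0033 (without SRp55 siRNA library 2) to 0.18 with a library left out. That of STXBP2 turned to -0.25 with coding transcripts alone, and that of PCLO ranged from -0.23 to 0.086 with a library left out, positive without SRp55 siRNA library 1. With a library left out, the main-transcript usage difference ranged from -3.81 to 6.35 points for PCLO, from -1.11 to 3.02 for RIMS2 and from 1.82 to 5.13 for SNAP25. The cause of these moves was not tested. Depth limits SYTL4 and RIMS1, with at most 2 and 6 reads per library.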
